A study of Mus musculus with 12 samples.

Results

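The BCL2 family decides whether a mitochondrion releases cytochrome c and so whether a cell dies by apoptosis. Anti-apoptotic members hold the pore-forming effectors in check, and BH3-only members, named for the single short domain they share with the rest of the family, release or activate those effectors. Most CD4+CD8+ (double-positive) thymocytes die in the thymus by neglect or negative selection, and their survival is known to depend on this balance. The members described here are 10 of the 55335 genes in the deposited count tables: the 3 anti-apoptotic genes Bcl2, Bcl2l1 (encoding Bcl-xL) and Mcl1, the 2 effector genes Bax and Bak1, and the 5 BH3-only genes Bcl2l11 (Bim), Bbc3 (Puma), Bmf, Bid and Bad. They were listed by gene symbol because of their role and because Bcl2 is a published target of miR-181. Symbols in the authors' tables named 9 of them, and the gene ID table named Bmf.

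RNA-seq and ribosome footprinting, which sequences the mRNA fragments covered by ribosomes, were carried out on thymocytes from mice of 6 weeks. The groups were wild type (WT) and miR-181a/b-1 KO, which lacks the Mir181a-1 and Mir181b-1 pair, with 3 mice each and no other allele or agent named in the labels. All cells were kept in cycloheximide, which stalls ribosomes, after isolation. There were 12 libraries, 3 per genotype and assay, all of unsorted thymocytes, so fewer cells of a type and less RNA per cell cannot be told apart. The labels do not name the cells in which the deletion acts.

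The deleted pair gives rise to 2 of the 4 mature miR-181 sequences below, shown because their shared seed (bases 2 to 8, in capitals) is what pairs with target mRNAs such as Bcl2. Sequences are from RefSeq (GRCm38.p6).
mmu-miR-181a-5p: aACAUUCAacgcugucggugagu
mmu-miR-181b-5p: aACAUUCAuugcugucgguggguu
mmu-miR-181c-5p: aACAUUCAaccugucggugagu
mmu-miR-181d-5p: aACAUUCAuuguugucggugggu
The 5p forms of miR-181a and miR-181b are also encoded by Mir181a-2 and Mir181b-2 on chromosome 2, and those of miR-181c and miR-181d by genes on chromosome 8. All 4 carry the same seed, so the KO removes part of a family with 1 seed. Target sites in the members' transcripts were not analysed here.

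Libraries held 4479182 to 8180286 reads in genes in RNA-seq and 4069968 to 17859770 in footprints, the lowest in footprint KO replicate 3. The row of Mir181a-1 was used to check the labels. It held 6803 reads in WT and 25 in KO footprints, but only 57 and 67 in RNA-seq, so it checks the footprint libraries and not the RNA-seq libraries, whose directions are given by their labels. In each assay, the WT and KO libraries of 1 replicate number deviated from their group means in opposite directions across genes (correlation -0.98 to -0.96 over 9814 genes in RNA-seq and -0.98 to -0.97 over 9902 genes in footprints). The spread within a group may therefore not measure the spread between mice. Calls (edgeR quasi-likelihood test, Benjamini-Hochberg FDR under 0.05 over all genes) are therefore also given with replicate number as a blocking factor, called the block below. T-lineage markers summed to 3530 to 3979 CPM in RNA-seq and 7161 to 7855 CPM in footprints, where CPM are counts scaled to library size (TMM). The sum of markers of double-negative thymocytes (Il2ra, Kit, Hes1, Cd44), an earlier stage, was higher in KO. These markers summed to 83.2 to 97.8 CPM in WT and 127 to 149 CPM in KO RNA-seq, and to 176 to 191 and 207 to 224 CPM in footprints. Il2ra alone of the 4 was called in each assay, higher and also with the block. Hes1 went the other way without a call (log2 fold change -0.13 in RNA-seq and -0.37 in footprints). Cd44 was at 0.06 in both assays, and Kit at 0.37 and 0.12. Markers of double-positive thymocytes summed to 20743 to 21558 CPM in WT and 19935 to 20648 CPM in KO footprints, with 1 of 9 called higher and 2 lower, while their RNA-seq sums overlapped. Markers of mature single-positive T cells summed to 524 to 558 CPM in WT and 567 to 606 CPM in KO footprints, with 1 of 5 called higher. In RNA-seq their sums overlapped, at 323 to 334 and 317 to 332 CPM, and 2 of the 5 were called lower, Klf2 (log2 fold change -0.82, edgeR FDR 0.0223) and Ccr7 (-0.64, 0.00621). No marker of this list was called with the block. B-cell markers summed to 237 to 271 and 287 to 330 CPM in RNA-seq, and to 292 to 366 and 345 to 441 CPM in footprints, where 1 of 6 was called higher. Erythroid markers summed to 76.0 to 90.9 CPM in WT and 46.6 to 58.4 CPM in KO RNA-seq, and to 40.7 to 75.6 and 34.8 to 74.1 CPM in footprints, with 1 gene called lower in each. The sum of epithelial markers was lower in KO without overlap. It was 18.9 to 22.2 (WT) against 14.2 to 17.3 CPM in RNA-seq and 75.5 to 82.3 against 59.8 to 70.5 CPM in footprints. Only Krt5 was called in RNA-seq (log2 fold change -1.07) and only Epcam in footprints (-0.50), neither with the block. Psmb11 in RNA-seq (0.05) and Foxn1 in footprints (0.38) were above 0 without a call. The sum of stromal and endothelial markers was higher in KO RNA-seq, at 198 to 203 (WT) against 226 to 235 CPM, and overlapped in footprints. Of the 3 tested in RNA-seq, only Pecam1 was called, higher in KO (log2 fold change 0.25). Col1a1 (-0.43) and Col3a1 (-0.06) were below 0 without a call. Myeloid and dendritic sums overlapped in both assays, but Siglech, a marker of plasmacytoid dendritic cells, was called lower in both, in footprints also with the block (log2 fold change -1.03, block FDR 0.0444). No list had a marker at 0 in all libraries. The part of cell composition in the results below was not tested.

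The question was how the loss of miR-181a/b-1 changed the family in RNA and in ribosome occupancy. In footprints 4 of the 10 members rose in KO: Bbc3 by 1.51-fold, Mcl1 by 1.38-fold, Bcl2l11 by 1.27-fold and Bax by 1.22-fold. None fell, and Mcl1 alone was called with the replicate block. In RNA-seq no member was called by edgeR, and none by DESeq2. Bcl2 itself was called in neither assay. Among all genes tested, 17.6% were called in footprints (9.25% higher in KO) and 6.91% in RNA-seq. With the block these shares were 3.02% (1.89% higher) and 0.806%, and the members called were 1 and 0.

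**Figure D1:**
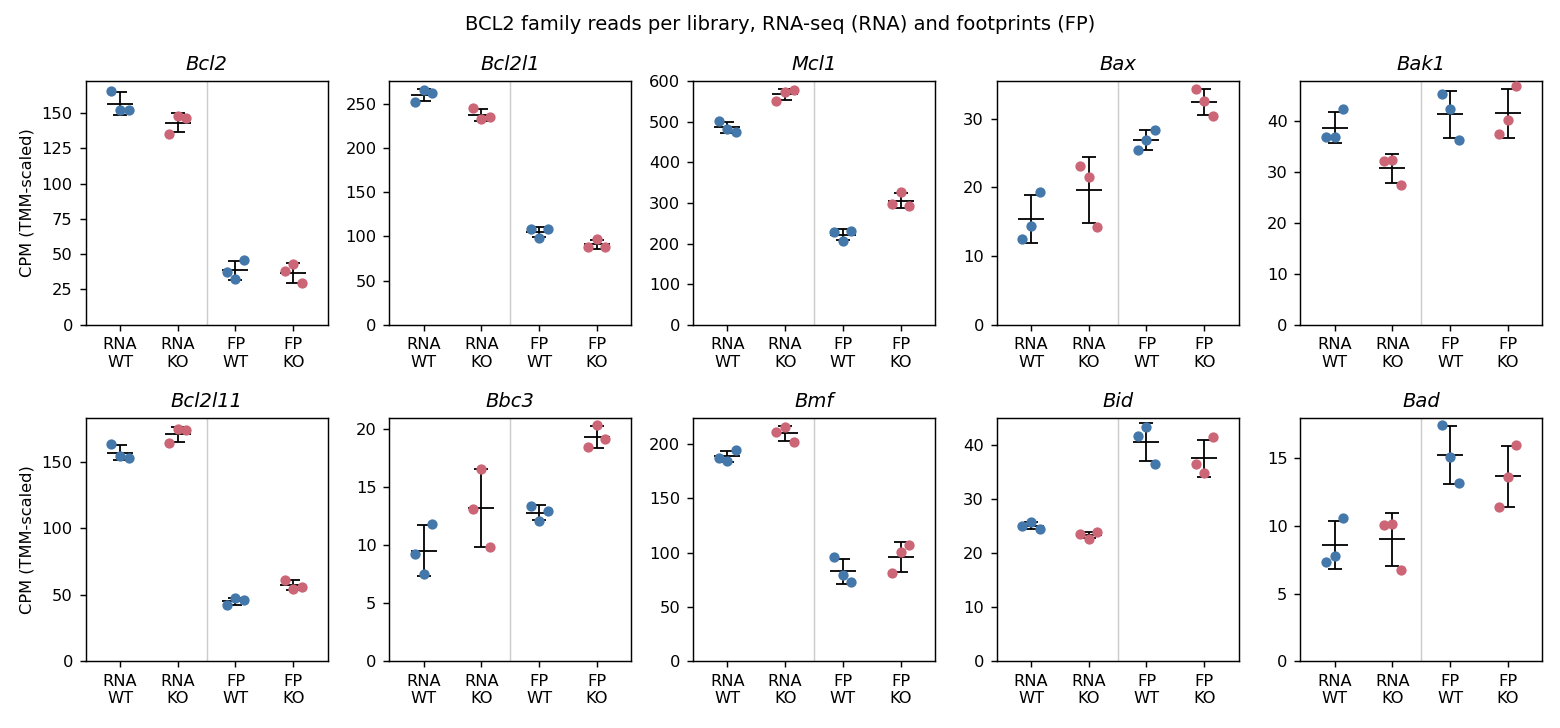
CPM (TMM-scaled, y axis from 0) of the 10 members in each RNA-seq (RNA) and footprint (FP) library. Each point is 1 library, with the mean and SD of 3 as bar and whiskers. In footprints the KO libraries lie above all WT libraries for Mcl1, Bax, Bcl2l11 and Bbc3.

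Bcl2 (ENSMUSG00000057329.7) encodes the founding member of the family, which keeps mature thymocytes alive and is low in double-positive cells. Its RNA-seq level was 166, 152 and 152 CPM in the WT-labelled and 135, 148 and 146 CPM in the KO-labelled libraries. The 3 KO-labelled libraries were all below the WT-labelled ones, by a small margin, and the log2 fold change of -0.13 (SE 0.064) had an edgeR FDR of 0.283. Its 95% interval of fold change ran from 0.821 to 1.02. In footprints Bcl2 stood at 37.3, 32.4 and 45.7 CPM in WT and 38.0, 42.8 and 29.2 CPM in KO. These values overlapped over most of their range, and the mean was 38.5 ± 6.72 CPM (SD, n = 3) in WT and 36.7 ± 6.90 CPM in KO. The footprint fold change was 0.997 with a 95% interval of 0.760 to 1.31 (edgeR FDR 0.990). A rise above 1.31-fold therefore lies outside this interval, while smaller changes in either direction do not. With the block the log2 fold change was -0.03 (95% interval -0.40 to 0.35).

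Bcl2l1 (ENSMUSG00000007659.18) encodes Bcl-xL, which is known to keep double-positive thymocytes alive. In RNA-seq it had 252, 266 and 262 CPM in WT and 246, 233 and 235 CPM in KO. In footprints it had 108, 98.2 and 108 CPM in WT and 88.2, 96.9 and 87.9 CPM in KO. All KO values lay below all WT values in both assays. Neither difference passed: the log2 fold change was -0.13 (SE 0.052, edgeR FDR 0.200) in RNA-seq and -0.20 (SE 0.060, edgeR FDR 0.0708) in footprints. A joint fit of the 12 libraries called the footprint value (FDR 0.0421), and the replicate block did not (0.333).

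Mcl1 (ENSMUSG00000038612.16) encodes a short-lived anti-apoptotic protein that thymocytes need at several stages. It had 502, 484 and 476 CPM in WT and 553, 575 and 577 CPM in KO RNA-seq. In footprints it had 229, 207 and 231 CPM in WT and 297, 326 and 292 CPM in KO. Every KO library stood above every WT library in both assays. Footprints averaged 222 ± 13.2 (WT) and 305 ± 18.5 CPM (KO; SD, n = 3), a rise of 0.46 on the log2 scale (SE 0.063; edgeR FDR 0.00591, with the block 0.0308). The call stood in each of the 6 omissions of 1 library, at an FDR of 0.0164 to 0.0218. In RNA-seq the log2 fold change was 0.22 (SE 0.051) and the edgeR FDR 0.0529, just short of the threshold, against 0.642 with the block, 0.180 with DESeq2 and 0.0335 in the joint fit. The authors' deposited table gives the same order: a log2 fold change of 0.44 with an adjusted p of 1.43e-07 in footprints, and 0.22 with 0.0702 in RNA-seq.

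The effectors Bax and Bak1 form the pore in the outer mitochondrial membrane. Bax (ENSMUSG00000003873.11) had 25.5, 26.9 and 28.4 CPM in WT and 34.3, 32.5 and 30.4 CPM in KO footprints, with no overlap. The rise was 0.29 on the log2 scale (SE 0.064, edgeR FDR 0.0288). The call was the least stable of the 4. It was lost with the block (FDR 0.288), with DESeq2 (0.124), in the joint fit (0.211) and without WT replicate 1 or 2 or KO replicate 1 or 2 (log2 fold change 0.25 to 0.29). The authors' deposited table gives it an adjusted p of 0.136. In RNA-seq Bax spread from 12.6 to 19.3 CPM in WT and from 14.2 to 23.1 CPM in KO, on 79 to 158 reads per library, and the groups overlapped. Bak1 (ENSMUSG00000057789.14) went the other way. Its RNA-seq level was 36.9, 37.0 and 42.3 CPM in WT and 32.2, 32.4 and 27.4 CPM in KO, without overlap, and the difference of -0.34 (log2, SE 0.097) did not pass (edgeR FDR 0.0900, with the block 0.560). Its footprints, at 41.3 ± 4.56 and 41.5 ± 4.88 CPM (SD, n = 3), overlapped throughout, with a 95% interval of fold change from 0.821 to 1.17.

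Bcl2l11 (ENSMUSG00000027381.16) encodes Bim, the BH3-only protein known to drive the death of thymocytes in negative selection. Its footprints were 42.2, 47.4 and 46.2 CPM in WT and 61.5, 54.7 and 56.0 CPM in KO. The lowest KO library was above the highest WT library. The rise was 0.34 on the log2 scale (SE 0.067; edgeR FDR 0.0184), and it was also called by DESeq2 (adjusted p 0.0129) but not with the block (FDR 0.132) or without KO replicate 1 (0.0534). In RNA-seq it had 163, 154 and 153 CPM in WT and 164, 175 and 174 CPM in KO, groups that were separate by about 1 CPM. The RNA-seq log2 fold change was 0.12 (SE 0.056, edgeR FDR 0.240).

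Bbc3 (ENSMUSG00000002083.13) encodes Puma, a BH3-only protein best known as a product of a p53 target gene. It had 13.4, 12.1 and 13.0 CPM in WT and 18.5, 20.3 and 19.1 CPM in KO footprints. The groups did not overlap, at 12.8 ± 0.670 and 19.3 ± 0.947 CPM (SD, n = 3). The log2 fold change was 0.60 (SE 0.070; edgeR FDR 0.00363), larger than for the other 9 members in this assay, although its 95% interval, 0.43 to 0.77, overlaps that of Mcl1, 0.31 to 0.61. The call stood in all 6 omissions of 1 library and under DESeq2 (adjusted p 0.00238). With the block the FDR was 0.0582 at a log2 fold change of 0.60 (SE 0.14). Bbc3 rested on 78 to 313 footprint reads per library. In RNA-seq, with 54 to 90 reads, it had 9.22, 7.53 and 11.8 CPM in WT and 13.2, 16.6 and 9.85 CPM in KO, which overlap, and the log2 fold change of 0.42 (SE 0.24) had an edgeR FDR of 0.339.

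The remaining BH3-only genes were called in neither assay. Bmf (ENSMUSG00000040093.16), whose product responds to loss of anchorage and to histone deacetylase inhibition, had 187, 184 and 194 CPM in WT and 211, 216 and 202 CPM in KO RNA-seq. The KO values lay above the WT values, by 0.15 on the log2 scale (SE 0.054, edgeR FDR 0.151). Its footprints overlapped, at 73.4 to 95.7 and 81.0 to 107 CPM. Bid (ENSMUSG00000004446.12), which links death receptors to mitochondria, averaged 25.1 ± 0.644 (WT) and 23.4 ± 0.622 CPM (KO) in RNA-seq (SD, n = 3), without overlap, and overlapped in footprints (log2 fold change -0.14, edgeR FDR 0.317). Bad (ENSMUSG00000024959.14), held inactive by growth factor signals, was the least counted member, with 43 to 77 reads in RNA-seq and 65 to 305 in footprints, and overlapped in both. Its footprint log2 fold change was -0.21 with a wide 95% interval, from -0.56 to 0.13.

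**Figure D2:**
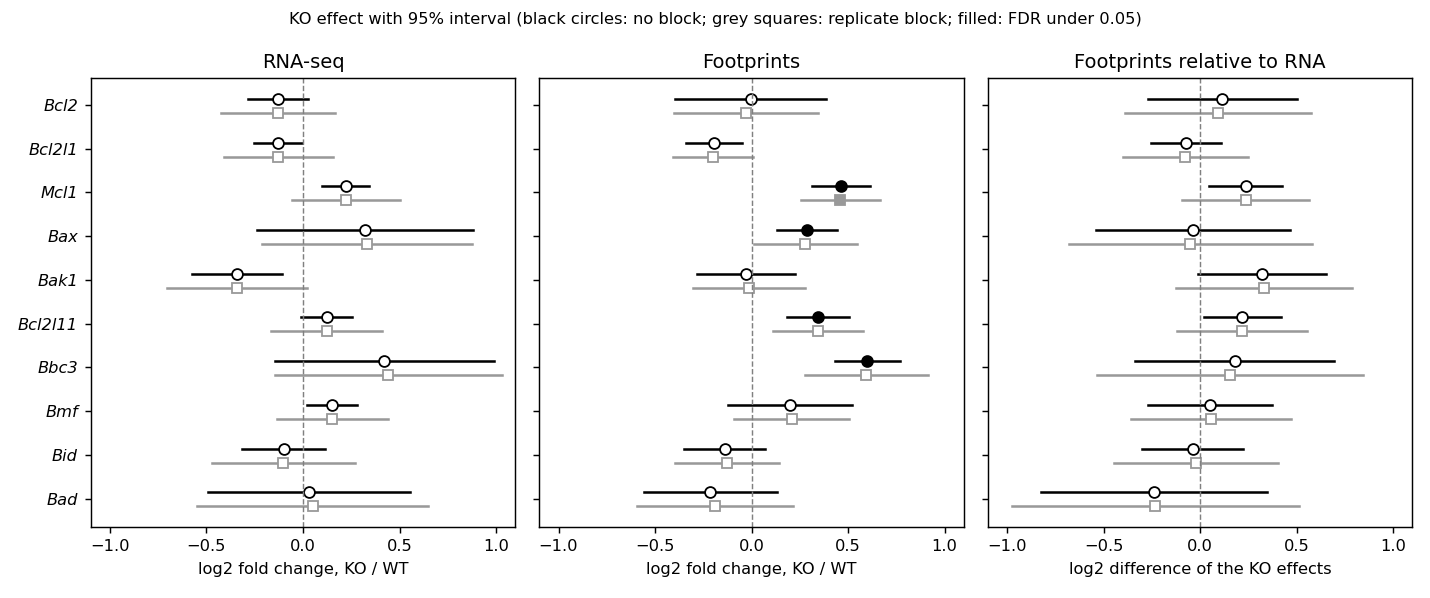
Log2 fold change of KO over WT of each member (x axis) for RNA-seq, footprints and their interaction (translation), with 95% intervals, without the block (black circles) and with the replicate block (grey squares, in the right panel within each assay); filled symbols have an FDR under 0.05. The 4 filled circles in footprints are Mcl1, Bax, Bcl2l11 and Bbc3, and the only filled square is Mcl1.

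Over the 10 members the median log2 fold change was 0.08 in RNA-seq, with 6 above 0, and 0.10 in footprints, with 5 above 0. The medians of all genes tested were -0.00053 and -0.0090. KO and WT libraries did not overlap for 7 members in RNA-seq (3 higher, 4 lower in KO), beside 30.9% of all genes tested (15.5% higher, 15.4% lower), and for 5 in footprints (4 higher, 1 lower), beside 38.1% (18.5% and 19.6%). At an unadjusted p under 0.05 lay 4 members in RNA-seq (Bcl2l1, Mcl1, Bak1 and Bmf), beside 23.8% of genes, and 5 in footprints, beside 33.1%. The members of 1 role did not move as a unit. Among anti-apoptotic genes Mcl1 rose in footprints and Bcl2 and Bcl2l1 were at -0.0047 and -0.20. Among BH3-only genes Bbc3 and Bcl2l11 rose and Bmf, Bid and Bad were at 0.20, -0.14 and -0.21 on the log2 scale.

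Whether footprints changed more or less than RNA was tested by a genotype by assay interaction, which uses the 12 libraries of both comparisons above. No member was called by edgeR or by DESeq2, and 0.211% of all 11854 genes tested were called by edgeR (0.0169% with the block within each assay, and no member). Mcl1 and Bcl2l11 had the lowest p of the 10, both unadjusted under 0.05, as had 14% of all genes. Mcl1 had an interaction of 0.24 (SE 0.087, edgeR FDR 0.259) and Bcl2l11 of 0.22 (SE 0.092, FDR 0.307). Their 95% intervals ran from 0.047 to 0.43 and from 0.019 to 0.42. Bak1 had the highest point estimate, 0.32 (SE 0.15, FDR 0.373), with RNA-seq at -0.34 and footprints at -0.03. Bcl2 stood at 0.11 with an interval of -0.27 to 0.50. For Mcl1 and Bbc3 it was therefore not shown that footprints changed more than RNA, although the FDR threshold was met in footprints alone.

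In WT, members differed in how many footprints they had for their RNA. The ratio of footprints to RNA needs no gene length, but the length of untranslated sequence still enters it. Bcl2 had the lowest ratio of footprint to RNA-seq CPM, 0.245 (log2 -2.03), followed by Bcl2l11 (0.289), Bcl2l1 (0.403), Bmf (0.439) and Mcl1 (0.456). The other 5 lay above 1: Bak1 (1.07), Bbc3 (1.34), Bid (1.61), Bax (1.75) and Bad (1.78). The ratio ranges over libraries left a gap between Mcl1 (log2 -1.28 to -1.04) and Bak1 (-0.22 to 0.29). A second gap lay between Bcl2l11 (up to -1.69) and Bcl2l1 (from -1.44), and the other neighbours in this order overlapped. Across the 11854 genes tested in both assays the median log2 ratio was -0.20, with the middle 50% of genes between -1.09 and 0.69. Bcl2 was at the 10.1 percentile of these genes, Mcl1 at the 23.7 and Bad at the 78.7. All 3 anti-apoptotic genes thus lay in the lower group and both effectors in the upper, while BH3-only genes were found in both. In KO the log2 ratio of Mcl1 was -0.90 (-0.98 to -0.76) and that of Bcl2l11 -1.57 (-1.67 to -1.42). Both ranges lay above those in WT, for Bcl2l11 narrowly (WT up to -1.69). Neither interaction passed the test, and the share of all genes with separate ranges was not counted.

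**Figure D3:**
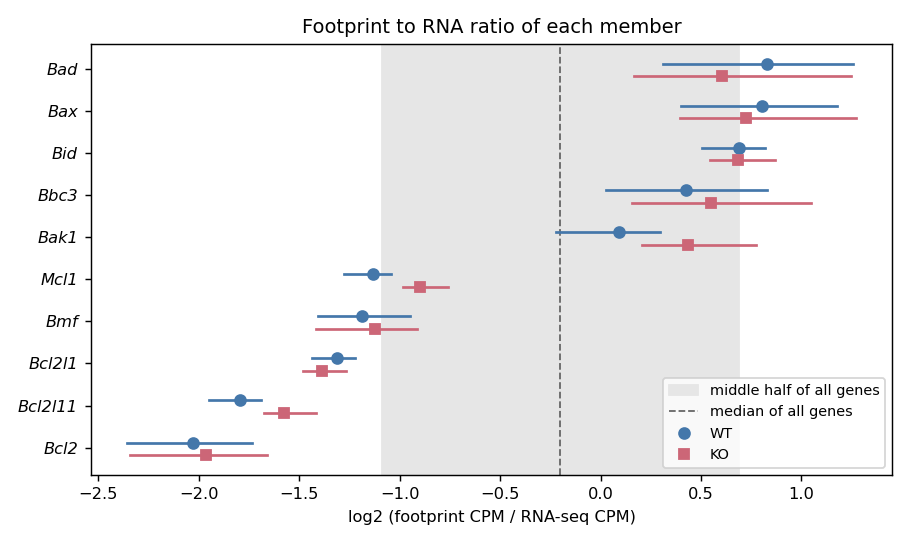
Log2 ratio of mean footprint CPM to mean RNA-seq CPM (x axis) of each member in WT (blue circles) and KO (red squares); lines run from the lowest footprint over the highest RNA-seq library to the highest over the lowest. The shaded band holds the middle 50% of 11854 genes and the dashed line is their median, -0.20; Bcl2, Bcl2l11, Bcl2l1, Bmf and Mcl1 lie below the band in WT and the other 5 above the median, and the KO value of Mcl1, -0.90, lies inside the band.

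Promoter windows of 2 members, Bcl2l11 and Bbc3, held the forkhead (FOXO) core GTAAACA. Both genes rose in footprints without a call in RNA-seq, and a link between this and the motif was not tested. Each match is shown within 30 bases, with the match in capitals, on the strand of the gene, from RefSeq (GRCm38.p6). The Bcl2l11 window is chr2:128125800-128125829 on the plus strand, its match beginning 227 bases before a start site. The Bbc3 window is chr7:16310083-16310112 on the plus strand, its match, the reverse complement TGTTTAC, beginning 167 bases before another start site.
Bcl2l11: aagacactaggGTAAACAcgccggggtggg
Bbc3: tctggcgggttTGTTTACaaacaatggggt
The search covered the 250 bases before each of 18 start sites of the 10 members, on both strands, and some windows of 1 gene overlap. Neither match overlaps a match of another motif searched. The motif was in 2 of the 18 and in 3.17% of the 32851 windows of all genes. Of the other motifs searched, GGGCGG (the GC box) was in 10 of the 18 and 32.7% of all windows, CCAAT in 6 and 33.8%, and CACGTG in 2 and 6.02%. The CACGTG matches were in Bax and Bbc3, which also rose in footprints. TGACGTCA and TATAAA were in none of the 18, and in 1.55% and 12.4% of all windows. A match is a run of letters and not a measured site.

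Genes around the family were counted in lists written down with earlier results of these data known. The counts called stand beside 6.91% of all genes tested in RNA-seq and 17.6% in footprints. With the block these shares were 0.806% and 3.02%. Of 16 other BCL2 family genes, 7 were tested in RNA-seq and 9 in footprints. In RNA-seq 1 rose, Bcl2l2 (Bcl-w, anti-apoptotic), with means of 12.5 ± 0.825 and 17.4 ± 0.987 CPM in WT and KO (SD, n = 3; log2 difference 0.47, edgeR FDR 0.0319, with the block 0.447), while it had at most 0.736 CPM in any footprint library. In footprints 2 fell, Bik (-1.07) and Bcl2l14 (-0.93), both with at most 4.26 CPM in any footprint library, and neither was called with the block (FDR 0.373 and 0.145). Pmaip1, encoding the BH3-only protein Noxa, had log2 fold changes of 0.45 in RNA-seq and -0.37 in footprints and was called in neither (edgeR FDR 0.257 and 0.270). The medians of the tested genes were 0.09 and -0.11.

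Of 21 apoptosome and caspase genes, 20 were tested in each assay. In RNA-seq 4 rose and none fell, among them Apaf1 (0.42), Vdac3 (0.41) and Casp8 (0.33). In footprints Apaf1, the scaffold of the apoptosome, rose by 0.26 on the log2 scale, with means of 120.0 ± 1.99 (WT) and 144 ± 2.55 CPM (KO; SD, n = 3; edgeR FDR 0.00496) and Vdac1, a channel of the outer membrane, fell by 0.25. None of these was called with the block (FDR of Apaf1 0.252 in RNA-seq and 0.148 in footprints). The list medians were 0.03 and 0.0057.

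Of 10 death receptor genes, 9 were tested. Tnfsf10, the gene of the death ligand TRAIL, rose in both assays: from 23.4, 22.3 and 20.4 to 33.4, 34.8 and 37.5 CPM in RNA-seq and from 15.3, 15.8 and 14.9 to 29.4, 28.3 and 30.2 CPM in footprints. The footprint log2 fold change was 0.92 (SE 0.053; edgeR FDR 0.000325, with the block 0.00374), and the RNA-seq change 0.68 (edgeR FDR 0.00880, with the block 0.110). Ripk1 also rose in RNA-seq (0.38). In footprints Cflar, an inhibitor of caspase 8 activation, rose (0.28) and Fas (-0.27) and Ripk3 (-0.18) fell. None of these 4 was called with the block, and the list medians were -0.08 and 0.01.

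Of 25 upstream regulators, all tested, 2 rose and 0 fell in RNA-seq, and 4 rose and 2 fell in footprints. With the block 1 and 4 were called, all higher. The 4 in footprints were Tsc22d3 (GILZ, a glucocorticoid target; log2 fold change 0.78, block FDR 0.0423) and 3 genes induced by T-cell receptor signals: Nr4a3 (0.75, block FDR 0.0344), Egr1 (0.57, 0.0491) and Nr4a1 (0.49, 0.0438), whose product Nur77 can bind Bcl2. Nr4a1 footprints were 100.2, 84.4 and 87.8 CPM in WT and 114, 137 and 132 CPM in KO, without overlap. Its RNA-seq levels overlapped, at 53.4 to 70.1 and 56.8 to 76.2 CPM. In RNA-seq Tsc22d3 rose by 0.82 on the log2 scale (block FDR 0.0329). The kinase genes Pim2 and Pim1, named here after their values were seen, fell by 0.35 and 0.14 in footprints and were not called with the block (FDR 0.368 and 0.492). The list medians were 0.02 in RNA-seq and 0.08 in footprints. For translation no gene of the 4 lists was called by edgeR. In the order given, 1 of 6, 6 of 19, 2 of 9 and 4 of 25 tested genes had an unadjusted p under 0.05, beside 14% of all genes.

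**Figure D4:**
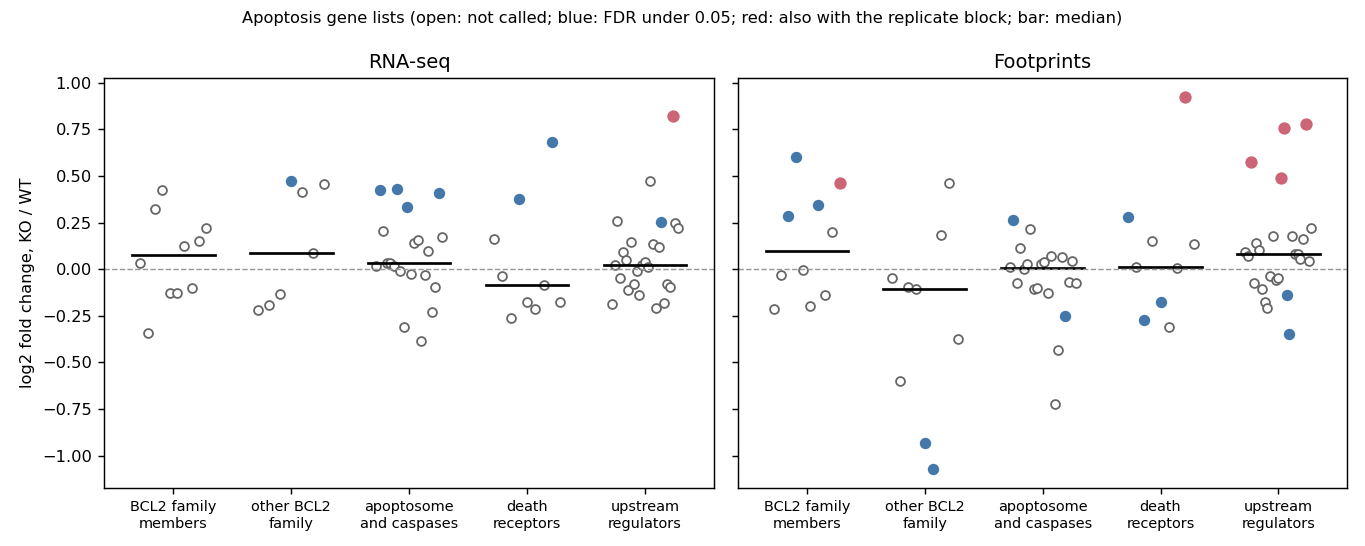
Log2 fold change of KO over WT (y axis) of each tested gene in the BCL2 family and the 4 other lists, in RNA-seq (left) and footprints (right). Filled points have an FDR under 0.05 (blue), red ones also with the replicate block, and bars are medians; the red points in footprints are Mcl1, Tnfsf10, Tsc22d3, Nr4a3, Egr1 and Nr4a1.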

How the data were processed

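The members and gene lists were chosen with earlier results of these data known. The deposited counts are whole-number reads per Ensembl gene, 1 table per assay, which the authors call adjusted. Sources used here do not say what was adjusted, and the build, annotation and strandedness of counting were likewise not given in them. The submitters' processing notes name Bowtie2 2.5.1, STAR 2.7.10a, HTSeq 2.0.3 and DESeq2 1.40.2. The authors' deposited tables of log2 fold changes and p-values were read for the members, and their 12 per-library columns were not used. Reads not assigned to a gene, for any reason, were left out. They made up 71.5% to 73% of RNA-seq and 26.9% to 27.7% of footprint counts.

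edgeR 4.0.16 (R 4.3.3) was run on the 6 libraries of an assay at a time (TMM, filterByExpr with a minimum count of 10, quasi-likelihood test), and translation as the genotype by assay interaction. All 10 members passed the filter. SEs and 95% intervals were derived from each p-value and its degrees of freedom. Named genes were the 10 members, the called genes of each list (at most 4 per assay), Bcl2l2, Pmaip1, Mir181a-1 and the 3 genes most like Bcl2. Alternatives were RLE factors, DESeq2 1.42.0, no filter, the replicate block, a joint fit, an FDR of 0.1 and omission of each library. The fits were tested on simulated data with independent libraries and known changes of 2 on the log2 scale, larger than those of the members. The simulation had no mirrored deviations, so it does not test the calls under them. Some called genes of the lists are counted but not reported by name here. Protein sequences were not used. RefSeq gene spans of Bcl2, Bcl2l1, Bcl2l11, Bak1, Bad and Bid overlap other genes, so their reads are less certain.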

Additional observations from a re-analysis of the deposited data

Results flagged for a closer look

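The KO effect on Mir181a-1 differed between the assays by a test of the interaction, at -7.80 on the log2 scale (edgeR FDR 0.000318, with the block within each assay 0.000226): its reads fell in footprints and not in RNA-seq, where they were few. No BCL2 family member had a KO effect that differed between the assays by that test.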

How the results depend on the processing

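Of 110 values of single members under alternatives in each assay, 105 in RNA-seq and 94 in footprints kept direction and side of the threshold, as did 159 of 170 for translation; all 70 alternative footprint to RNA ratios moved by less than their SD. Replicate numbers did not pair the libraries in the usual sense, since same-numbered WT and KO deviate in opposite directions. With the replicate block 110 genes were called in RNA-seq and 408 in footprints (943 and 2376 without), 2 for translation with the block within each assay (25 without) and 17 with the block by mouse, which assumes that equal numbers mark 1 mouse. With the block 1 member was called in footprints, and 0 of the other BCL2 family, 0 of the apoptosome and 1 (Tnfsf10, footprints) of the death receptor genes; of upstream regulators 1 was called in RNA-seq. DESeq2 called 532, 1248 and 46 genes; an FDR under 0.1 gave 1742 in RNA-seq with 2 members, and 131 for translation; the joint fit gave 1557 in RNA-seq with 1 member. For these shifts the cause was not tested.

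Omitting single libraries left 215 to 323 genes called in RNA-seq, 1035 to 1554 in footprints and 6 to 24 for translation, where fewer samples lower the counts by construction; of members, 0, 2 to 4 and 0 were called. The fewest in footprints, 2, were without KO replicate 1. Direction changed, with no call, for Bad in RNA-seq (-0.086 to 0.23), for Bcl2 (-0.14 to 0.12) and Bak1 (-0.11 to 0.045) in footprints, and for Bcl2 (-0.020 to 0.24), Bax (-0.25 to 0.12), Bid (-0.10 to 0.015), Bbc3 (-0.019 to 0.34) and Bmf (-0.026 to 0.17) for translation. The fewest reads were 43 per library in RNA-seq and 65 in footprints, both of Bad.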

Other observations

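The reads of anti-apoptotic genes relative to those of Bcl2l11 and Bbc3 within a library were compared after the values above were seen, as a description with no test. Bcl2l11 and Bbc3 had already been called higher in KO footprints. A lower KO footprint ratio of a gene that did not rise follows from this and is not a separate result. In RNA-seq Bcl2 and Bcl2l1 were lower and Bcl2l11 higher in KO without overlap. The lower KO RNA-seq ratios of Bcl2 and Bcl2l1 to Bcl2l11 follow from this and are likewise not separate results. No share over other gene pairs is given. In footprints Bcl2l1 had 2.56, 2.07 and 2.34 reads per Bcl2l11 read in WT and 1.43, 1.77 and 1.57 in KO, without overlap. Relative to Bbc3 it had 8.08, 8.13 and 8.33 in WT and 4.78, 4.76 and 4.59 in KO. Mcl1 per Bcl2l11 read overlapped in footprints, with means of 4.92 ± 0.526 and 5.34 ± 0.577. Mcl1 per Bbc3 read was 17.3 ± 0.409 (SD, n = 3) in WT and 15.8 ± 0.474 in KO, and did not overlap. In RNA-seq Bcl2l1 per Bcl2l11 read averaged 1.66 ± 0.0997 in WT and 1.39 ± 0.0879 in KO, and Bcl2 per Bcl2l11 read was 0.986 to 1.02 and 0.824 to 0.849, both lower in KO without overlap. Mcl1 per Bcl2l11 read was instead higher in KO RNA-seq, at 3.11 ± 0.0300 and 3.33 ± 0.0346. The RNA-seq ratios of all 3 genes to Bbc3 overlapped. These ratios depend on gene length and do not compare protein or mRNA amounts between the genes.

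The 3 genes whose log2 CPM, centred within each assay, followed that of Bcl2 most closely over the 12 libraries were Gm20559 (Pearson r 0.98), Gm49553 (0.95) and Dleu7 (0.94), among 11853 genes compared. The 12 values share libraries, depth and the mirrored deviations, so this is a description.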
